A study of Mus musculus with 24 samples.

Results

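Kap, Inmt, Slc7a13, Mpv17l and Napsa, abundant transcripts of the mouse kidney, were followed through ureteric obstruction and its reversal. They are 5 of the 14785 genes in the deposited table and were picked because their level was high after sham surgery and then low, or only partly regained, in the other groups. No numeric threshold went into that choice. Every difference from sham below therefore describes how the genes were chosen and carries no test. The comparisons that leave sham out were tested, although the same libraries had a part in the choice.

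All 5 are known from the proximal tubule, the nephron segment that reabsorbs most of the filtered solute and depends on mitochondrial and peroxisomal oxidation. The tubule runs from early convoluted segments (S1 and S2) to a straight segment (S3) in the outer medulla and the medullary rays of the cortex. In the mouse it is also one of the most sex-dependent tissues, since androgens raise the transcription of many of its genes. Kap encodes the kidney androgen-regulated protein. Inmt encodes indolethylamine N-methyltransferase, which methylates tryptamine and related amines. Slc7a13 encodes an acidic amino acid and cystine transporter of the S3 apical membrane that pairs with the heavy chain Slc3a1. Mpv17l encodes a Mpv17-like protein linked to peroxisomes and reactive oxygen metabolism. Napsa encodes napsin A, an aspartic protease of lysosomes that is otherwise best known from the lung.

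RNA was sequenced in bulk from the kidneys, described as cortical, of male C57 mice that were 8 to 9 weeks old at the start. Each of the 6 groups has 4 animals, selected from 10 per group. One group had sham surgery (sham), and the next 2 had the ureter ligated for 2 days (UUO2) or 7 days (UUO7). In the other 3 groups the ureter was reimplanted after 7 days of ligation, and the kidneys were taken 1 week (R1W), 2 weeks (R2W) or 4 weeks (R4W) later. The study thus asks how far a kidney returns towards its starting state once obstruction is relieved. Levels are FPKM, a measure scaled by transcript length and library size, a unit inferred from the values. The number of reads per library is not given in the table, so no counting error can be attached to a value.

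By the annotation of GRCm38 (mm10), Kap lies on the minus strand at chr6:133849851-133853762 with 4 exons in its longest transcript. Inmt lies on the same chromosome and strand at chr6:55170626-55175043, with 3 exons. Slc7a13 lies on the plus strand at chr4:19818725-19842218 (4 exons), Mpv17l at chr16:13903161-13949619 (4 exons) and Napsa at chr7:44572380-44586862 (9 exons). RefSeq promoter windows on GRCm38.p6 matched 2 of the 5 genes, Inmt and Kap. The bases upstream of every annotated exon are shown for these 2 genes. After 2 days of obstruction Inmt stood at 3.24% and Kap at 25.3% of the sham mean. The bases are written 5′ to 3′ on the minus strand, with each TATAAA, the core of a TATA box, in capitals, at chr6:55175044-55175240 for Inmt and chr6:133853763-133853917 for Kap.
Inmt: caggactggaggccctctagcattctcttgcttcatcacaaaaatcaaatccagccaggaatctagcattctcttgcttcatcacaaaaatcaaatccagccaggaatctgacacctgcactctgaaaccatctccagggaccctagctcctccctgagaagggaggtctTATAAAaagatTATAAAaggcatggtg
Kap: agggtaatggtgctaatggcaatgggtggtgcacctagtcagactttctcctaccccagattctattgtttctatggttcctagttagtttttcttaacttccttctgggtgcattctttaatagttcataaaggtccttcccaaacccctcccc
The Inmt stretch holds 2 copies of TATAAA, starting 27 and 16 bases before the outermost annotated start, and a run of 46 bases that occurs as 2 copies back to back. In Kap the 1 match lies 31 bases before the RefSeq start, inside the longer annotated first exon, and is not printed. Of 32851 RefSeq windows of 250 bases, 12.4% hold TATAAA on either strand. Neither window holds, on either strand, AGAACA (core of the steroid receptor element, in 16.1% of windows), AGGTCA (nuclear receptor core, 14.0%) or GTTAAT (HNF1 core, 6.43%). CAAAG, an HNF4 core held by 48.6% of windows, occurs once in the Inmt window and not in that of Kap. These matches describe letters in a window and nothing about binding, and their part in the levels of the 2 genes was not tested.

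In sham kidneys Kap was the most abundant transcript of the table. It stood at 45542, 33378, 41595 and 44852 FPKM in the 4 sham animals, 5.33% ± 0.65 (SD, n = 4) of all FPKM in a library. After 2 days of obstruction it stood at 8682, 13303, 10985 and 8950 FPKM, and after 7 days at 13816, 15682, 12511 and 8509 FPKM. Kap was thus far lower in every obstructed animal than in any sham animal, yet it was still among the most abundant transcripts of the kidney. By group mean it ranked 11th at UUO2 and 2nd at UUO7. After reversal the values were 23729, 12702, 21296 and 23295 FPKM at R1W, 17152, 30117, 18305 and 22122 FPKM at R2W, and 18581, 19964, 20430 and 27718 FPKM at R4W. No animal of the 3 recovery groups reached the lowest sham animal. Kap again ranked 1st by group mean in each of them, at 49.0% ± 12.4, 53.0% ± 14.2 and 52.4% ± 9.93 of the sham mean (SD, n = 4). In bulk RNA, fewer cells of a type and less RNA per cell cannot be told apart, here or for any gene below.

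Inmt, the methyltransferase, was furthest below sham among the 5 after 2 days. Its sham values were 1114, 935, 1039 and 1221 FPKM, and its UUO2 values were 28.5, 36.1, 38.6 and 36.4 FPKM. This is 3.24% ± 0.41 of the sham mean (SD, n = 4), a move from rank 68 to rank 2886 among all genes. At UUO7, with the obstruction still in place, all 4 animals were above all UUO2 animals, at 143, 152, 101 and 83.6 FPKM. Of all genes, 47.9% lay wholly higher at UUO7 than at UUO2. Recovery values were 592, 366, 433 and 392 FPKM at R1W, 300, 732, 293 and 425 FPKM at R2W, and 560, 578, 686 and 789 FPKM at R4W. The R4W animals, at 60.6% ± 9.86 of the sham mean, held all of their values below the lowest sham animal.

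Other small-molecule methyltransferases differed from sham in both directions. Of 6 listed, 4 were lower and 2 higher at UUO2 than in sham, where 17.0% of all genes tested were lower and 32.3% higher (limma, adjusted p under 0.05; 25.5% and 25.3% after a rescaling of the libraries described below). At UUO7 4 were lower and 1 higher (5 and 1 rescaled), against 17.8% and 60.1% of all genes (36.5% and 36.5% rescaled). Tpmt, which methylates thiopurines, fell on the log2 scale by 0.79 at UUO2 (adjusted p = 0.000524) and by 1.37 at UUO7 (adjusted p = 2.04e-07).

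Slc7a13, the S3 transporter, was almost as deeply reduced and stayed so through day 7. Sham animals had 439, 296, 431 and 420 FPKM. Obstructed animals had 23.8, 33.8, 26.1 and 22.8 FPKM at UUO2 and 46.0, 43.6, 20.2 and 26.3 FPKM at UUO7. The UUO7 range encloses the UUO2 range, and the group means lie at 6.71% ± 1.25 and 8.58% ± 3.21 of the sham mean (SD, n = 4). The lowest value of any of the 5 genes in any library was this gene's 20.2 FPKM, so none of them was lost in the literal sense. Reversal was followed by 197, 103, 89.4 and 165 FPKM at R1W, 119, 236, 137 and 195 FPKM at R2W, and 170, 171, 163 and 228 FPKM at R4W. All recovery animals lay above all obstructed animals and below all sham animals.

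Its heavy chain Slc3a1 was reduced much less. Slc3a1 averaged 264 FPKM in sham, 173 at UUO2, 107 at UUO7 and 153 at R4W. It fell by 0.62 (SE 0.16, adjusted p = 0.00289), 1.29 (adjusted p = 2.46e-07) and 0.78 (adjusted p = 0.000229) against sham on the log2 scale. Within a library, Slc7a13 was 149% ± 14.2 of Slc3a1 in sham, 15.4% ± 0.63 at UUO2, 31.2% ± 9.59 at UUO7 and 119% ± 6.78 at R4W (SD, n = 4). Slc7a13 transcript exceeded that of its heavy chain in sham and R4W kidneys and was well below it in obstructed ones. Of 8 light and heavy chains in the table, Slc3a1 included, 1 fell and 3 rose at UUO2, close to the 17.0% and 32.3% of all genes. At UUO7 4 fell and 4 rose (4 and 3 rescaled), against 17.8% and 60.1% of all genes (36.5% and 36.5% rescaled). Slc7a9, the light chain that shares Slc3a1 in cystine uptake, stood at -0.01 at UUO2 (adjusted p = 0.945) and fell by 1.00 at UUO7 (adjusted p = 2.93e-07). Slc3a2, the heavy chain found in most cells, rose at UUO2 by 0.64 (adjusted p = 4.95e-06) and also at UUO7, by 0.39 (adjusted p = 0.00036). After rescaling the UUO7 value was -0.09 (adjusted p = 0.416).

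Mpv17l differed from the genes above in being lower at day 7 than at day 2. Sham animals had 313, 189, 310 and 275 FPKM. UUO2 animals had 77.6, 105, 81.3 and 64.2 FPKM, and UUO7 animals had 58.2, 54.0, 50.6 and 42.2 FPKM, with no overlap between these 2 groups (12.6% of all genes lay wholly lower at UUO7). In recovery the values were 140, 75.0, 99.9 and 149 FPKM at R1W, 92.1, 151, 109 and 127 FPKM at R2W, and 105, 73.9, 94.7 and 123 FPKM at R4W. R4W stood at 36.5% ± 7.54 of the sham mean (SD, n = 4), the lowest of the 5 genes at that time. The sham mean itself is the least precise of the 5, with an SD of 21.2%.

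Most listed peroxisomal and Mpv17 family genes were lower in the same groups. Of 14 listed, 10 were lower and 2 higher at UUO2, 12 were lower and 1 higher at UUO7, and 9 were lower and 1 higher at R4W (13 and 1 rescaled). Among all genes tested, 17.0% were lower and 32.3% higher at UUO2 (25.5% and 25.3% rescaled), 17.8% were lower and 60.1% higher at UUO7 (36.5% and 36.5% rescaled), and 11.6% were lower and 54.8% higher at R4W (31.1% and 28.9% rescaled). Catalase, Cat, averaged 356 FPKM in sham, 213 at UUO2, 109 at UUO7 and 239 at R4W. Cat fell by 1.71 at UUO7 (SE 0.16, adjusted p = 8.87e-09) and by 0.58 at R4W (adjusted p = 0.0044) on the log2 scale. Mpv17l stood at -1.44 at R4W, a value with no test.

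Napsa was the least reduced of the 5. Its values were 1827, 1459, 1690 and 1759 FPKM in sham, 939, 1479, 1053 and 828 FPKM at UUO2, and 1031, 847, 893 and 766 FPKM at UUO7. UUO2 replicate 2 reached into the sham range, while all UUO7 animals lay below it. Recovery animals had 1382, 795, 885 and 1342 FPKM at R1W, 988, 1561, 1067 and 1263 FPKM at R2W, and 1093, 1059, 933 and 1214 FPKM at R4W. R2W overlapped sham through replicate 2, and R1W and R4W did not overlap it. Across the 6 groups the mean of Napsa stayed between rank 38 and rank 131.

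Of 7 other aspartic proteases listed, 2 rose and 1 fell at UUO2, where 32.3% and 17.0% of all genes did. At UUO7 5 rose and 0 fell (4 and 1 rescaled), where 60.1% of all genes rose and 17.8% fell (36.5% and 36.5% rescaled), so the family's count is near the background. Cathepsin D, Ctsd, the main lysosomal aspartic protease, averaged 326 ± 32.6 FPKM in sham and 926 ± 61.5 FPKM at UUO7 (SD, n = 4), while Napsa went from 1684 ± 160 to 884 ± 111 FPKM. Napsa transcripts thus exceeded those of Ctsd in sham and were at about the same level at day 7. Ctsd rose by 1.51 (SE 0.12, adjusted p = 1.17e-09) and was still 0.67 above sham at R4W (adjusted p = 9.96e-05). After rescaling the R4W value was 0.29 (adjusted p = 0.0197). Renin, Ren1, a protease of the same family, fell at UUO2 by 1.75 (adjusted p = 1.8e-05) and rose from UUO2 to UUO7 by 2.46 (adjusted p = 1.08e-07). At UUO7 it stood 0.71 above sham (adjusted p = 0.0201), and at 0.23 after rescaling (adjusted p = 0.483). Leaving out 1 library gave adjusted p from 0.00647 to 0.0790 at UUO7. That call was lost without sham replicate 2 or UUO7 replicate 3 or 4.

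**Figure D1:**
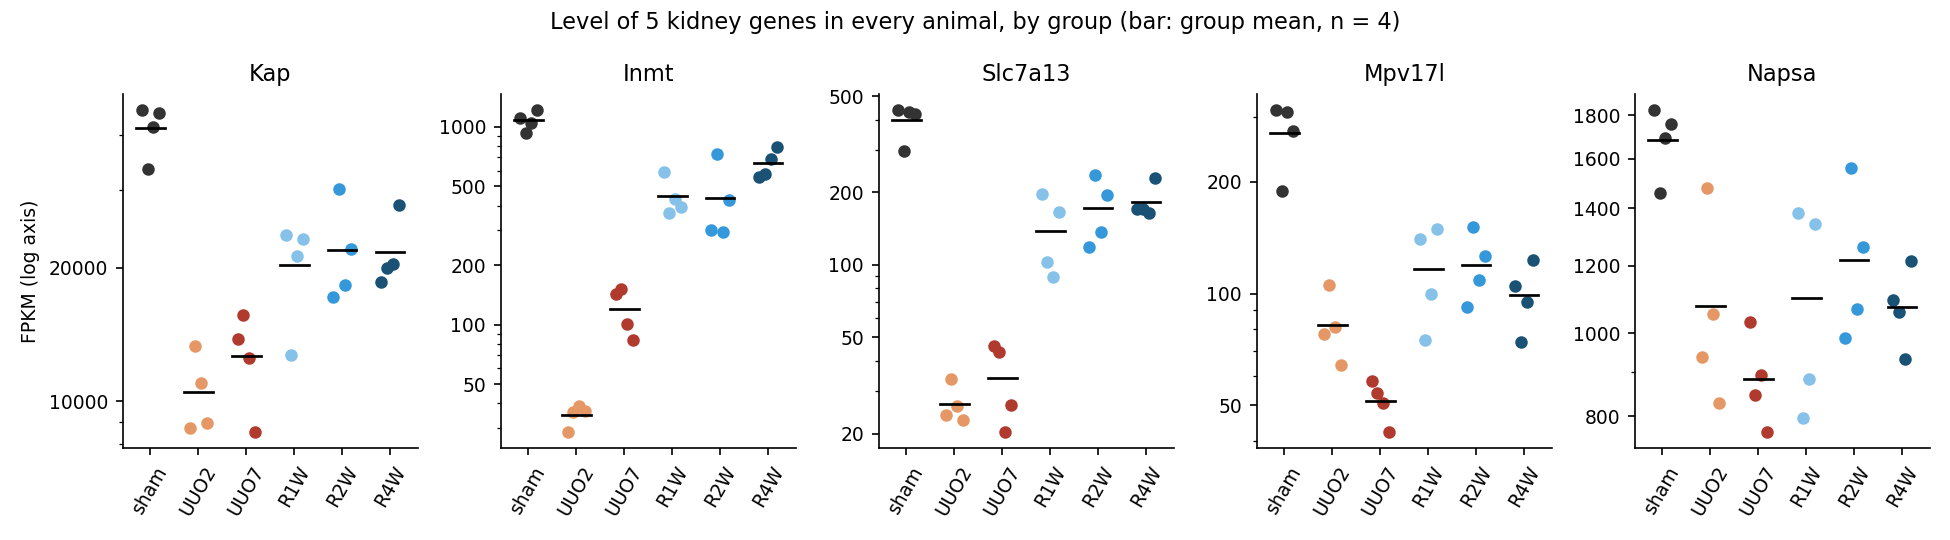
FPKM (log axis) of each gene in every animal, by group, with points for animals and bars for group means (n = 4). Sham animals lie above all others for Kap, Inmt, Slc7a13 and Mpv17l, and Inmt and Slc7a13 lie under 50 FPKM at UUO2 while Kap does not go below 8509 FPKM.

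Read against sham, 4 of the 5 genes had no library of UUO2 in the sham range, and all 5 had none of UUO7. At R1W and R4W all 5, and at R2W all but Napsa, lay wholly below sham. Of all genes, 14.4% lay wholly below sham at UUO2, 16.8% at UUO7, 12.9% at R1W, 12.0% at R2W and 11.6% at R4W. The genes were picked on these contrasts, so nothing is read from that count. In the order of group means, sham did not overlap the next group for Kap, Inmt, Slc7a13 and Mpv17l and did for Napsa. The recovery groups overlapped one another wherever they stood side by side in that order. Of the steps between obstruction and recovery, R2W lay clear of UUO7 for Inmt and R1W lay clear of UUO7 for Slc7a13.

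**Figure D2:**
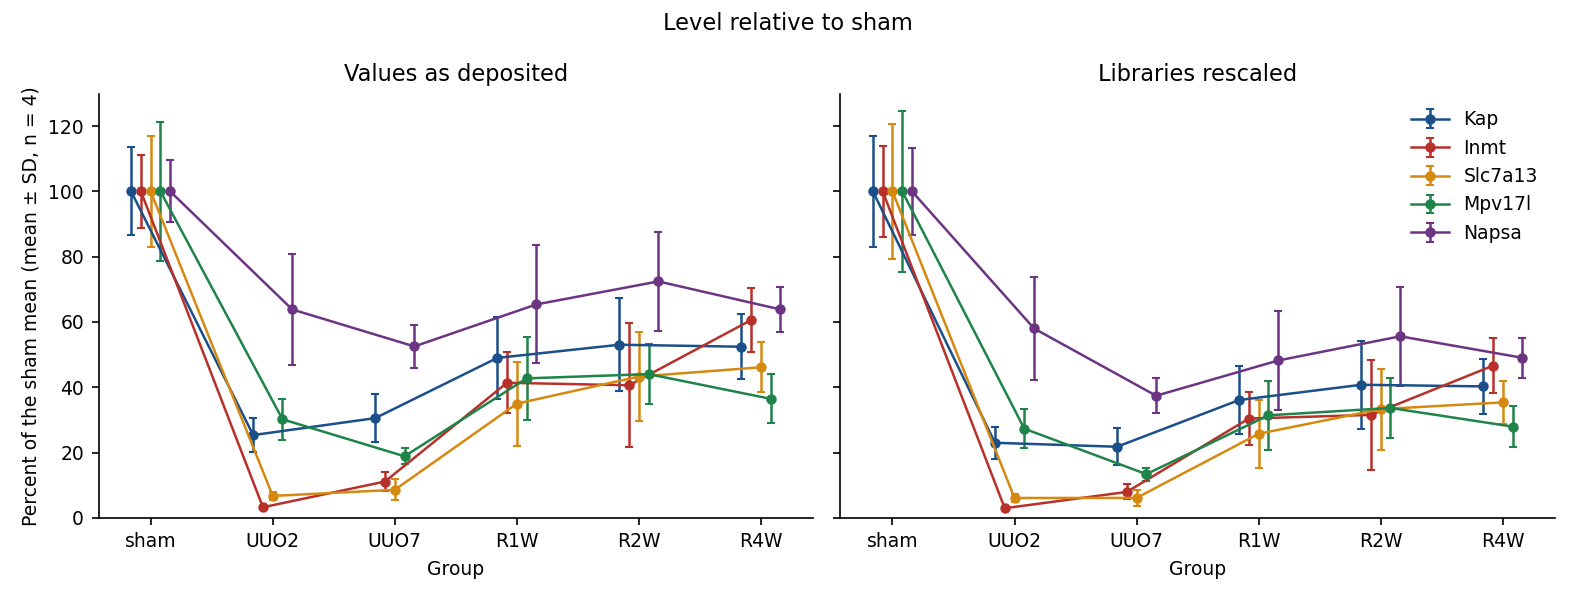
Group mean as a percentage of the sham mean for each gene, with SD over 4 animals, for the deposited values (left) and after each library was rescaled (right). Inmt and Slc7a13 lie at or below 11.1% in both obstructed groups, and rescaling lowers the R4W means from between 36.5% and 63.8% to between 27.9% and 49.0%.

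The scale of these percentages depends on what a library is divided by. The median gene was higher than in sham by 0.09 at UUO2, 0.42 at UUO7, 0.37 at R1W, 0.32 at R2W and 0.30 at R4W on the log2 scale. Rescaling removes that shift: a library is divided by the median, over genes, of its ratio to the geometric mean of all libraries. The R4W means then become 40.3% for Kap, 46.6% for Inmt, 35.4% for Slc7a13, 27.9% for Mpv17l and 49.0% for Napsa. The share of the gap between sham and UUO7 that had been regained at R4W was 31.5% ± 14.3 for Kap, 55.7% ± 11.1 for Inmt, 41.1% ± 8.33 for Slc7a13, 21.7% ± 9.29 for Mpv17l and 23.8% ± 14.5 for Napsa (SD, n = 4). Rescaled, these shares were 23.6%, 42.0%, 31.2%, 16.8% and 18.6%. In both versions the mean was highest for Inmt and lowest for Mpv17l.

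Some libraries stand apart in ways that bear on these values. The UUO2 libraries held 2343 to 2832 FPKM of the mitochondrial ribosomal RNA mt-Rnr1, against 342 to 709 FPKM in the other 20. The design text counts 20 libraries on 3 lanes, while 24 are given, and it names no run for any library. The part of this difference in the UUO2 values was not tested. Sham replicate 2 was the lowest sham animal for all 5 genes. Its 5 adipose markers summed to 339 FPKM (85.4 to 91.3 in the other sham animals) and its 5 urothelium markers to 34.2 FPKM (1.45 to 2.31). Their part in its values was not tested. Without it the shares regained at R4W were 28.8% for Kap, 53.1% for Inmt, 37.6% for Slc7a13, 19.3% for Mpv17l and 21.8% for Napsa. R4W replicate 1 held 1848 FPKM of adipose markers (66.0 to 477 in the other 3), and without it the shares for Kap and Inmt were 35.1% and 58.9%. R4W replicate 2 is 4 weeks by its title and 2 weeks by its treatment label, and it was grouped by title.

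In some groups 1 animal stood at the same end for most of the 5 genes. R2W replicate 2 and R4W replicate 4 were the highest of their groups for all 5 genes, and R1W replicate 2 was the lowest for 4 of the 5. The lowest R4W animal was shared by 2 of the 5 and the lowest UUO2 animal by 3. The share of all genes with the same animal at an end is not given. These animals were also at an end of their groups in the divisor used for rescaling. It was 0.990 for R2W replicate 2, 1.03 for R4W replicate 4 and 1.19 for R1W replicate 2. R2W replicate 2 held 815 FPKM of 6 macrophage markers, against 1045 to 2005 in the other 3, and its 15 S1 and S2 genes summed to 4836 FPKM, against 2670 to 4129. R1W replicate 2 held 1376 FPKM of the macrophage markers, against 967 to 1299, and 2468 FPKM of the S1 and S2 genes, against 2915 to 3898. R4W replicate 4 held 4872 FPKM of the S1 and S2 genes, against 3808 to 4457. R2W replicate 2 and R4W replicate 4 were thus high, and R1W replicate 2 low, in other proximal tubule genes too. This did not hold for every animal. Sham replicate 1 was the highest sham animal for 4 of the 5. Its S1 and S2 genes summed to 7648 FPKM, against 8060 in sham replicate 3. What sets an animal apart was not tested.

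The levels of the 5 genes relative to each other changed as well. Within a library, where scaling cancels, Inmt was 2.62% ± 0.17 of Kap in sham, 0.340% ± 0.056 at UUO2, 0.948% ± 0.099 at UUO7, 2.27% ± 0.52 at R1W, 1.93% ± 0.36 at R2W and 3.03% ± 0.23 at R4W (SD, n = 4). The ratio in each R4W animal lay above that of every sham animal. Napsa went the other way, from 4.09% ± 0.20 of Kap in sham to 10.2% ± 0.91 at UUO2, 7.25% ± 1.48 at UUO7 and 5.03% ± 0.69 at R4W. Slc7a13 was 0.956% ± 0.062 of Kap in sham, 0.255% ± 0.015 at UUO2, 0.270% ± 0.076 at UUO7 and 0.847% ± 0.049 at R4W. Mpv17l was 0.653% ± 0.078 in sham, 0.786% ± 0.079 at UUO2, 0.417% ± 0.063 at UUO7 and 0.461% ± 0.080 at R4W.

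**Figure D3:**
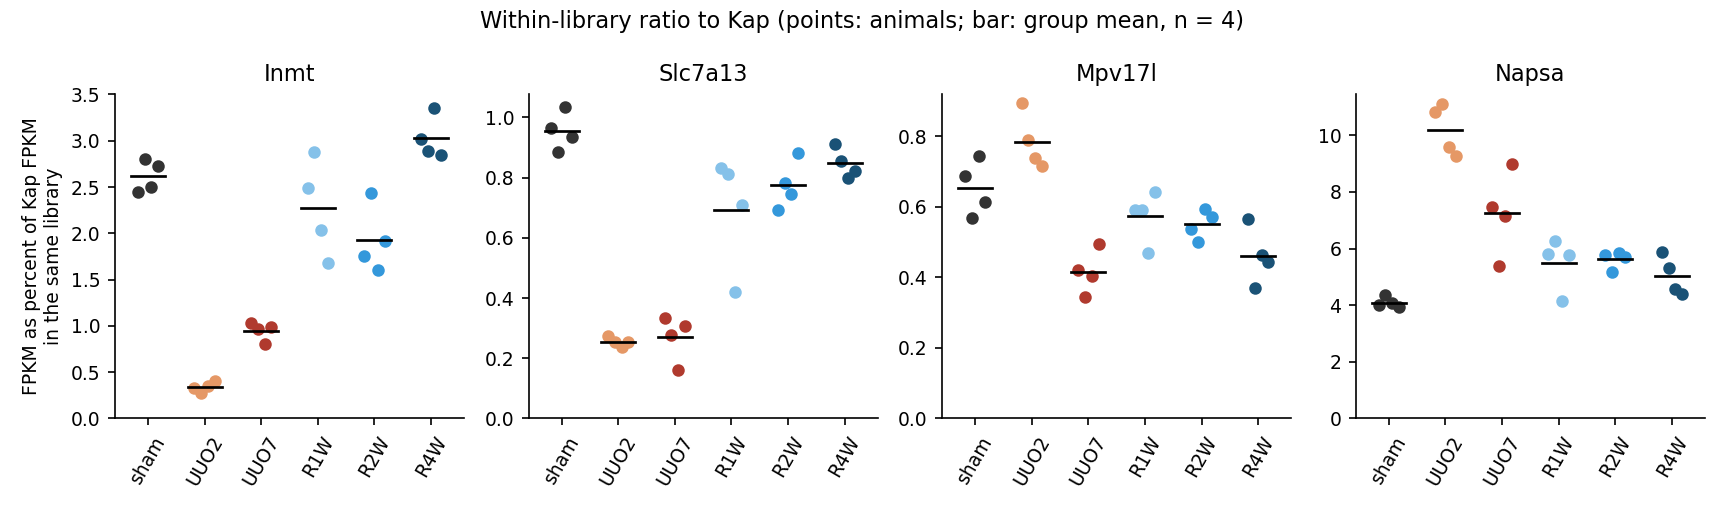
FPKM of 4 genes as a percentage of the Kap FPKM of the same library, by group, with points for animals and bars for group means (n = 4). Inmt is lowest relative to Kap at UUO2, Slc7a13 is low at UUO2 and UUO7, whose points overlap, and Napsa is highest at UUO2, at 10.2% of Kap.

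The comparisons without sham asked whether the genes changed between obstruction times and during recovery. From UUO2 to UUO7, 2 of the 5 changed: Inmt rose by 1.72 on the log2(FPKM + 1) scale (SE 0.23, adjusted p = 2.23e-06) and Mpv17l fell by 0.66 (SE 0.22, adjusted p = 0.011). Among all 14785 genes 66.7% were called in this comparison (52.0% higher and 14.7% lower, and 30.0% and 31.9% rescaled), so 2 of 5 is not more than the background. Kap stood at +0.26 (adjusted p = 0.328) and Slc7a13 at +0.28 (adjusted p = 0.363). Both signs reversed on rescaling, to -0.10 and -0.06. Napsa stood at -0.25 (adjusted p = 0.234), and at -0.61 with an adjusted p of 0.0199 after rescaling. In the authors' deposited table the Napsa change is -0.66 with an adjusted p of 0.00255.

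From UUO7 to R1W, 4 of the 5 rose, where 6.47% of all genes rose and 8.04% fell. The 5 were chosen for a fall or an incomplete return, in which the UUO7 values had a part. The count is therefore not a like comparison with all genes, and the p-values of the 5 carry the same limit. Slc7a13 rose by 2.00 (SE 0.27, adjusted p = 0.000182), a 4.00-fold change. Inmt rose by 1.90 (SE 0.23, adjusted p = 6.43e-05), or 3.74-fold. Mpv17l rose by 1.12 (SE 0.22, adjusted p = 0.00281), or 2.18-fold. Each of these 3 was higher in 4 of 4 R1W animals than in any UUO7 animal, as were 7.78% of all genes. Kap rose by 0.67 (SE 0.23, adjusted p = 0.0498), a call at the edge of the threshold. It was lost in 11 of 15 alternatives, with adjusted p from 0.0111 to 0.163, among them rescaling (adjusted p = 0.0684) and the removal of UUO7 replicate 1, 3 or 4 or R1W replicate 1, 3 or 4. In the authors' deposited table the Kap change is 0.70 with an adjusted p of 0.0249. Napsa was not called, at 0.28 with a 95% interval from -0.11 to 0.67 (adjusted p = 0.323).

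After the first week of recovery no further change was called in any of the 5. The comparisons of R2W with R1W and of R4W with R2W called 0.00676% and 0.0609% of all genes by limma, and that of R4W with R1W called 19.1% (5.06% higher). At an unadjusted p under 0.05, Inmt was the 1 member reached, from R2W to R4W (+0.67, 95% interval 0.18 to 1.16, adjusted p = 0.493) and from R1W to R4W (+0.56, 95% interval 0.07 to 1.05, adjusted p = 0.0944). Without R1W replicate 1 the latter was 0.71 with an adjusted p of 0.0431, and the authors' deposited table gives 0.61 with an adjusted p of 0.0215. For the other 4 genes the 95% interval from R1W to R4W ran from -0.35 to 0.59 for Kap, from -0.10 to 1.02 for Slc7a13, from -0.65 to 0.25 for Mpv17l and from -0.39 to 0.39 for Napsa. These intervals leave room for a further rise, which for Slc7a13 reaches 1.02 on the log2 scale and for Napsa 0.39.

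**Figure D4:**
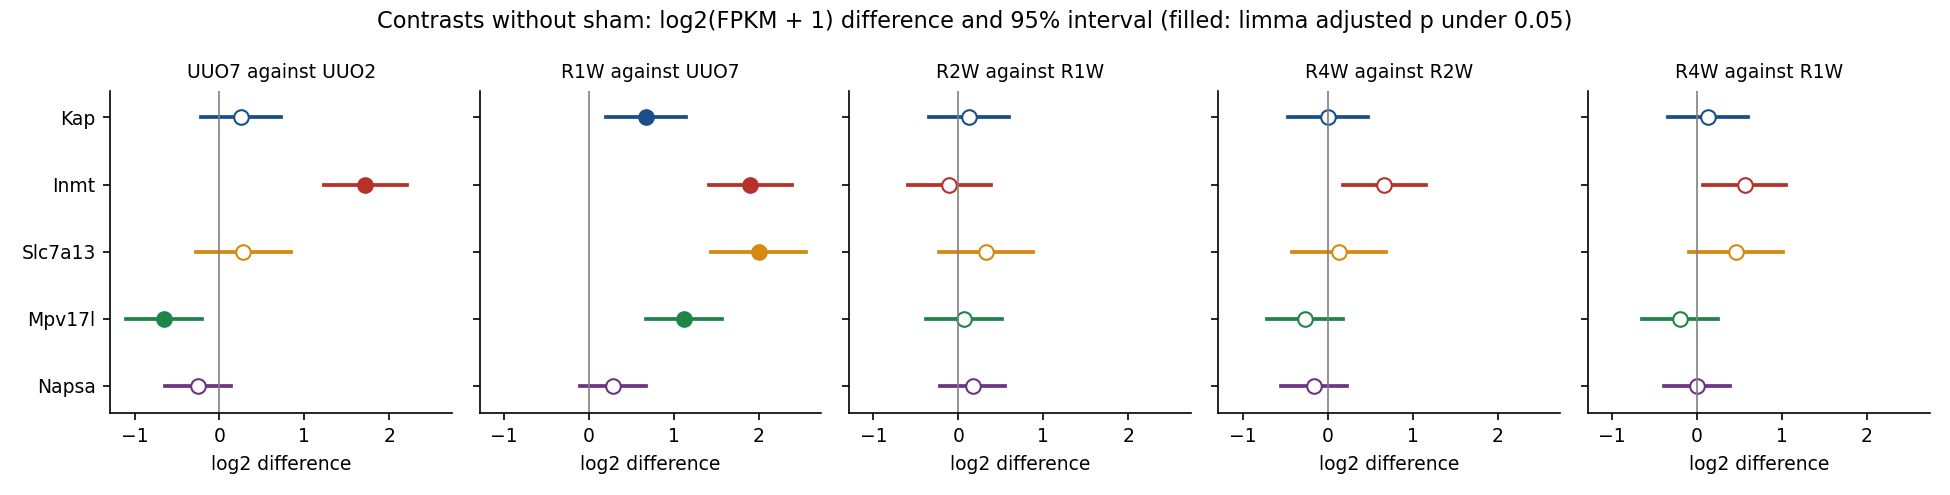
Difference between groups on the log2(FPKM + 1) scale with its 95% interval for the 5 genes in the 5 comparisons that leave sham out, with filled points for an adjusted p under 0.05 (limma). Filled points occur between UUO2 and UUO7 (Inmt, Mpv17l) and between UUO7 and R1W (Kap, Inmt, Slc7a13, Mpv17l), and nowhere later.

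Other genes known from S3 were lower in the same groups. Of 15 listed, none of them among the 5, 13 fell at UUO2, 15 at UUO7 and 14 at R4W against sham, with medians of -1.78, -2.10 and -0.96 on the log2 scale. Among all genes 17.0%, 17.8% and 11.6% fell (25.5%, 36.5% and 31.1% rescaled). Slc27a2, an acyl-CoA synthetase that carries fatty acids into the cell, averaged 2296 FPKM in sham, 1071 at UUO2, 738 at UUO7 and 1240 at R4W. Acy3, an aminoacylase, averaged 1852, 416, 433 and 956 FPKM, and the cytochrome Cyp4b1 1530, 252, 151 and 727 FPKM. From UUO7 to R1W 11 of the 15 rose (6 without R1W replicate 4), against 6.47% of all genes. From R1W to R4W 1 did, near the 5.06% of all genes, Cyp4b1 (+0.98, adjusted p = 0.0158, or 0.0645 without R1W replicate 3). Slc22a7, an organic anion transporter, was the 1 S3 gene that rose from UUO2 to UUO7, by 1.08 (adjusted p = 0.00239), while 4 of the 15 fell (11 fell after rescaling). It went from 248 FPKM in sham to 18.8 at UUO2, 40.6 at UUO7 and 123 at R1W.

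Genes of the earlier segments had mostly fallen by day 7. Of 15 listed S1 and S2 genes, 9 fell and 1 rose at UUO2, with a median of -0.61, and 14 fell and 1 rose at UUO7, with a median of -2.05 (9 and 14 fell after rescaling too). All 15 fell from UUO2 to UUO7. Of all genes 17.0% fell at UUO2, 17.8% at UUO7 and 14.7% from UUO2 to UUO7 (25.5%, 36.5% and 31.9% rescaled). From R1W to R4W 6 of the 15 rose, against 5.06% of all genes, and 1 did without R1W replicate 2 or 3 or R4W replicate 4. Slc34a1, the phosphate transporter, averaged 2764 FPKM in sham, 1231 at UUO2, 651 at UUO7, 1108 at R1W and 1610 at R4W. The gene that rose was the sulphate transporter Slc13a1, from 95.8 FPKM in sham to 433 at UUO2 and 229 at UUO7. The difference in timing between the S3 list and the S1 and S2 list was not itself tested.

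In the segments beyond the proximal tubule, 2 of 12 listed genes were still lower at R4W, which is near the 11.6% of all genes (31.1% rescaled). Of 5 thick ascending limb genes, 4 fell and 1 rose at UUO7, and 1 fell and 1 rose at R4W (1 and 1 rescaled). Of 7 genes of the distal convoluted tubule and collecting duct, 7 fell at UUO7 and 1 at R4W (1 rescaled). At UUO7 17.8% of all genes fell and 60.1% rose (36.5% and 36.5% rescaled). Umod, the most abundant of the thick limb list, averaged 1682 FPKM in sham, 1133 at UUO7 and 1733 at R4W. Egf, the growth factor precursor made in the distal nephron, was the thick limb gene still lower at R4W (adjusted p = 0.0409) and averaged 431, 15.3 and 227 FPKM. Pvalb, a calcium-binding protein of the distal convoluted tubule, was the gene of the other list still lower, by 0.72 (adjusted p = 0.036). The call of Egf was lost on leaving out any 1 library but R4W replicate 4, and that of Pvalb on leaving out any but sham replicate 4 or R4W replicate 3.

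**Figure D5:**
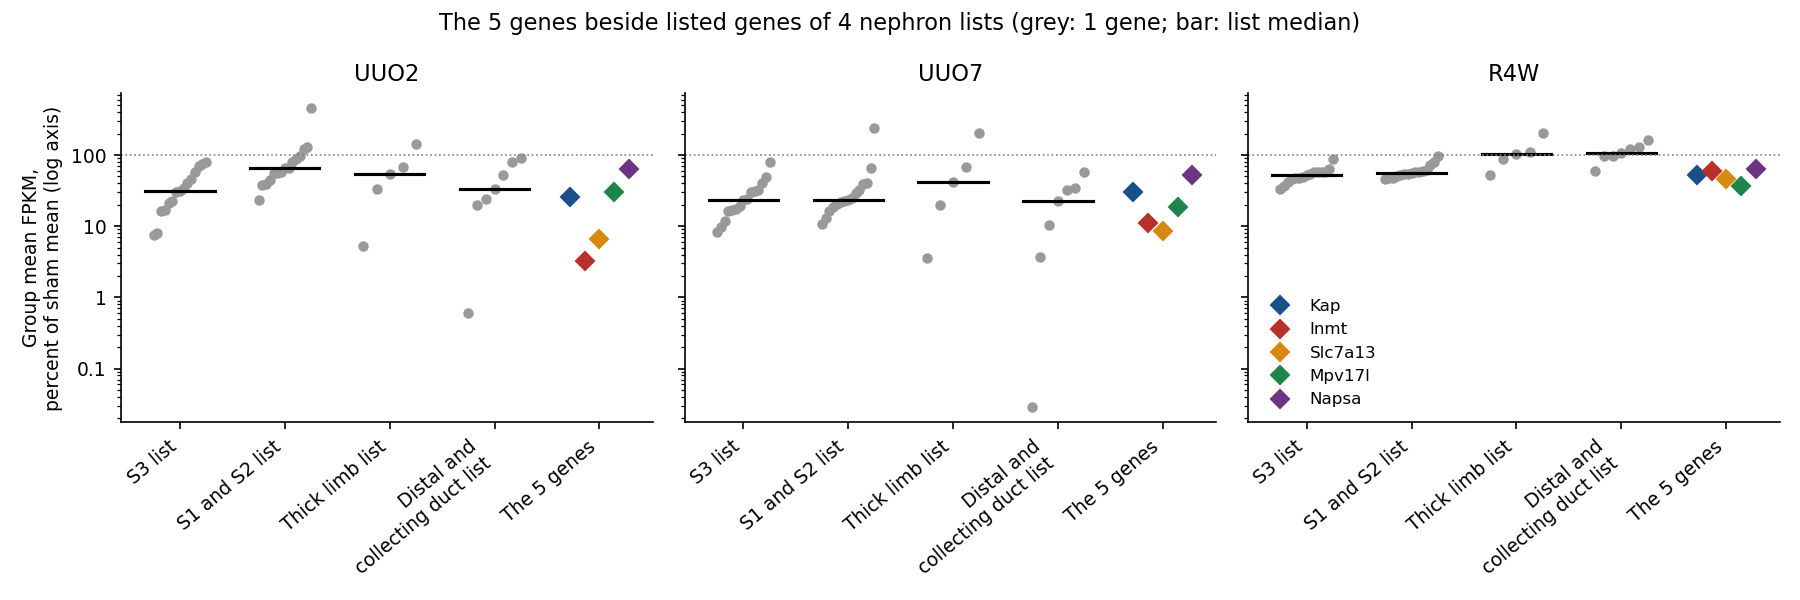
Group means as a percentage of sham (log axis) at UUO2, UUO7 and R4W for the genes of 4 nephron lists (grey points, bar at the list median) and the 5 genes (diamonds). At R4W the 5 genes lie between 36.5% and 63.8%, among the S3 and the S1 and S2 genes, while the genes of the thick limb and distal lists range from Egf at 52.7% and Pvalb at 59.4% to Cldn16 at 205%.

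Genes known to be higher in male than in female mouse kidney, or to be induced by androgens, were mostly lower. Of 12 listed, apart from the 5, 10 fell at UUO2 (11 rescaled), and 11 fell and 1 rose at UUO7 and again at R4W (11 and 0 rescaled at both). The shares of all genes that fell were 17.0% at UUO2, 17.8% at UUO7 and 11.6% at R4W (25.5%, 36.5% and 31.1% rescaled). Odc1, the ornithine decarboxylase, averaged 572 FPKM in sham, 225 at UUO2, 162 at UUO7 and 238 at R4W. The urate transporter Slc22a12 averaged 1099, 642, 316 and 584 FPKM. Several of the 12, such as Cyp4b1 and Cyp2e1, also stand in the S3 list. The gene that rose, the lysosomal enzyme Gusb, was 0.47 higher at UUO7 (adjusted p = 0.000101) and stood at 0.01 after rescaling (adjusted p = 0.938). Of 5 genes known to be higher in females, 3 rose and 1 fell at R4W (1 and 1 rescaled), the latter being Slc22a7, which is near the 54.8% and 11.6% of all genes. Without sham replicate 4 or R4W replicate 1, 1 rose.

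Transcription factors of the proximal tubule were lower in part. Of 12 listed, 3 fell and 1 rose at UUO2, 9 fell and 1 rose at UUO7 (11 and 0 rescaled), and 6 fell and 2 rose at R4W (10 and 0 rescaled). Among all genes 17.0% fell at UUO2, 17.8% at UUO7 and 11.6% at R4W (25.5%, 36.5% and 31.1% rescaled). The shares that rose were 32.3%, 60.1% and 54.8% (25.3%, 36.5% and 28.9% rescaled). The 3 that fell at UUO2 are near the share of all genes. The difference between the days was not itself tested. Hnf4a, a nuclear receptor that maintains proximal tubule identity, averaged 182 FPKM in sham, 135 at UUO2, 63.0 at UUO7 and 99.9 at R4W. It fell by 0.45 (SE 0.16, adjusted p = 0.0279), 1.52 (adjusted p = 4.28e-08) and 0.85 (adjusted p = 0.000141) on the log2 scale. From UUO7 to R1W Hnf4a stood at +0.15 (adjusted p = 0.585), and 1 of the 12 rose, near the 6.47% of all genes. From R1W to R4W Hnf4a rose by 0.52 (adjusted p = 0.0334). Leaving out 1 library gave adjusted p from 0.0137 to 0.157, and the call was lost without R1W replicate 2 or 3 or R4W replicate 1, 3 or 4. The UUO2 call was lost without sham replicate 1 or 3 or UUO2 replicate 1, 3 or 4, with adjusted p from 0.00598 to 0.109.

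Markers of injury, macrophages and fibroblasts were mostly higher than in sham, while those of podocytes and endothelium were not at UUO2. The counts below stand against 32.3% of all genes higher at UUO2, 60.1% at UUO7 and 54.8% at R4W (25.3%, 36.5% and 28.9% rescaled). Counts that fell at UUO2 stand against 17.0% of all genes lower (25.5% rescaled). All 10 injured tubule genes were higher than in sham at UUO2, UUO7 and R4W, and their summed level was 633 to 1064 FPKM in sham, 18000 to 29143 at UUO2, 19468 to 21838 at UUO7 and 3121 to 4202 at R4W. Spp1, osteopontin, averaged 480, 21142, 16129 and 2326 FPKM in these groups. Of 6 macrophage genes, 4 rose and 1 fell at UUO2, and 6 rose at UUO7 and at R4W. Their sum was 48.7 to 81.9 FPKM in sham, 82.4 to 189 at UUO2, 937 to 1126 at UUO7, 967 to 1376 at R1W, 815 to 2005 at R2W and 690 to 1368 at R4W. Of 6 fibroblast genes, 4 rose at UUO2 and 6 at UUO7 and R4W, with sums of 28.7 to 68.3 FPKM in sham, 96.5 to 188 at UUO2 and 502 to 653 at UUO7. None of the markers of these 3 lists was at 0 throughout a group. Of 5 podocyte genes, 3 fell and 1 rose at UUO2 (3 and 0 rescaled), and 4 rose at UUO7 (2 rescaled). Of 5 endothelial genes, 2 fell at UUO2 (5 rescaled), and 4 rose at UUO7. The 5 urothelium markers summed to 1.45 to 34.2 FPKM in sham, 0.47 to 3.41 at UUO2, 16.8 to 31.6 at UUO7, up to 52.3 at R1W, 23.6 to 73.9 at R2W and 42.6 to 141 at R4W, where 5 of the 5 rose against sham. The part of these cells in the levels of the 5 genes was not tested.

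Genes whose levels ran most nearly in parallel were ranked by Pearson's r over the 24 libraries on log2(FPKM + 1). The candidates were the 2099 genes that averaged 50 FPKM or more. The libraries share their groups, so these values only describe likeness. Kap was closest to Idh2, the mitochondrial isocitrate dehydrogenase (r = 0.964), Slc22a30 (0.962) and lipoprotein lipase, Lpl (0.962). Inmt was closest to Slc22a7 (0.962), to Slc7a13 (0.949) and to S100g, a calcium-binding protein (0.912). For Slc7a13 the nearest were Egf (0.964), the sodium-proton exchanger Slc9a8 (0.964) and the co-chaperone Dnajc12 (0.962). Mpv17l ran with Crot, the peroxisomal carnitine octanoyltransferase (0.970), the complex III subunit Uqcrc2 (0.963) and Aadat (0.962). Napsa ran with Tmem189 (0.953), Mettl7a2 (0.938) and the peroxiredoxin Prdx5 (0.916). Without the 4 UUO2 libraries the r of each named pair was between 0.909 and 0.978.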

How the data were processed

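Bulk RNA was sequenced from 24 mouse kidneys in 6 groups of 4, after polyA selection per the labels' protocols. The submitters' processing notes name FastQC, Bowtie2, RSEM, DESeq2 and mm10, with no versions or roles. The authors deposited 1 value per gene and library for 14785 genes, all with a mean of at least 1. The unit is stated neither per the file headers nor per the labels and was inferred as FPKM: the columns sum to between 717415 and 830179, and the sums of FPKM times transcript length vary less (ratio of highest to lowest 1.08 against 1.16). The deposited table also holds the authors' log2 fold changes and adjusted p-values, quoted only where named. Total counts are not given, so no count model was used and depth is unknown.

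The test was that of limma 3.58.1 (run under R 4.3.3) on log2(FPKM + 1). The functions lmFit and eBayes (trend set) were run once over the 6 groups, with Benjamini-Hochberg adjustment over all 14785 genes and a threshold of 0.05. Differences on this scale understate changes of low genes. The procedure was tried on simulated data first. The libraries of a group are separate animals by their titles. Replicate numbers recur across groups, but the libraries that share one did not deviate together (mean r between -0.17 and 0.15 over 10 comparisons). Alternatives were rescaled libraries, pseudocounts of 0.1 and 10, a minimum mean of 5, separate fits of 2 groups at a time, a fit that omits UUO2, R4W replicate 2 placed in R2W, a replicate block and the removal of each library in turn.

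The 5 genes and the 19 gene lists (145 of 152 listed genes had a row) were chosen with earlier results of these data known. The 5 genes are given in every library. Examples from a list are the genes of highest sham level among those called or not called. Other single genes (Slc13a1, Gusb, Slc22a7, Slc7a9, Cat, Egf) were picked as exceptions, as partners or for their known role after their values were seen. The rule for parallel genes was the 3 highest r for each member, without clone or model names. A few listed genes are not reported here by name. Promoter sequences are RefSeq's, and gene models are from the GENCODE annotation, release M21.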

Additional observations from a re-analysis of the deposited data

Results flagged for a closer look

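In 30 groups of 4 values (5 genes in 6 groups), the gap of the highest or lowest animal to its nearest neighbour was set against the range of the group. Chance gives about 1 such result in 20 groups, or 1.5 here, and 2 were found. Slc7a13 in sham replicate 2 was 296 FPKM, apart from 420 to 439 FPKM in the other 3 sham animals. Slc7a13 in R4W replicate 4 was 228 FPKM, apart from 163 to 171 FPKM in the other 3.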

How the results depend on the processing

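Rescaling the libraries reversed the sign of Kap and Slc7a13 from UUO2 to UUO7 (-0.096 and -0.058), neither of which was called. Placing R4W replicate 2 in R2W reversed Mpv17l from R1W to R2W (-0.062). Leaving out 1 library gave ranges for Kap of -0.089 to 0.227 (R2W against R1W), -0.123 to 0.166 (R4W against R2W) and -0.088 to 0.213 (R4W against R1W). For R2W against R1W the ranges were -0.388 to 0.051 for Inmt and -0.119 to 0.209 for Mpv17l. For Slc7a13 it was -0.027 to 0.300 (R4W against R2W), for Napsa -0.140 to 0.125 (R4W against R1W), and for the log2 ratio of Slc7a13 to Kap from UUO2 to UUO7 -0.084 to 0.264. The 1 gene called in R2W against R1W became 2 with a pseudocount of 0.1, 3 with a pseudocount of 10, 58 with R4W replicate 2 moved and 0 to 432 on leaving out 1 library. The 9 genes called in R4W against R2W became 3 with a pseudocount of 10, 1 with the replicate block and 0 to 27 on leaving out 1 library. They became 0 by limma with a pseudocount of 0.1 (1215 at an unadjusted p under 0.05), with a minimum mean of 5 (889), with the 2 groups alone (1276), without UUO2 (1464) or with R4W replicate 2 moved (1285). The 2830 genes called in R4W against R1W became 161 with the 2 groups alone, and 728 to 3491 on leaving out 1 library, with 728 without R1W replicate 3, 1609 without R4W replicate 1 and 1603 without R4W replicate 4. The 2145 genes of R1W against UUO7 became 1116 to 2535, with the lower counts without UUO7 replicate 1 (1345), 3 (1281) or 4 (1331) or R1W replicate 1 (1372) or 4 (1116), and the members called were 3 to 4. Members called in R4W against R1W were 0 to 1. Of all listed genes, the 34 called in R4W against R1W became 7 with the 2 groups alone and 11 to 38 on leaving out 1 library (11 without R1W replicate 3, 18 without R4W replicate 1, 18 without 3, 19 without 4), and the 56 called in R1W against UUO7 became 36 to 59 (36 without R1W replicate 1). The cause was not tested. With the replicate block the log2 difference of Kap in R1W against UUO7 had an adjusted p of 0.0763, a lost call, and the numbers are not known to pair the animals. A pseudocount does not enter the share regained. Unknown depth limits low values.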
